A study of Anguilla anguilla with 12 samples.

Results

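Gene expression in European eel eggs stripped after an injection of progesterone (P) was compared with that in the oocytes drawn from females before the injection. It rests on 6 of the 12 RNA sequencing samples of the series, chosen by treatment alone: 3 of oocytes before P and 3 of eggs after P. All 6 came from wild-type feminized females, that is, eels fed estradiol as farmed elvers so that they became female, which then carried implants of methyltestosterone and estradiol and received weekly injections of carp pituitary extract until their oocytes were ready to mature. The oocytes were picked from ovarian tissue drawn with a cannula just before P was injected at 2 mg/kg, and the eggs were stripped when released, which was looked for between 11 and 18 h after the injection. Each treatment group of the RNA sequencing consisted of 3 females, each sampled before and after the injection. After the injection the water was gradually warmed, and males were placed with the females. The hormones given before P were the same for both groups, and no female was left uninjected over the same hours. P, the warming, the presence of males, the passing of time and ovulation itself therefore cannot be told apart.

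In teleost fish the full-grown oocyte waits in meiotic arrest inside a follicle of granulosa and theca cells. A progestin then acts at the oocyte to restart meiosis: cyclin B joins the kinase Cdk1 to form maturation-promoting factor, the nuclear envelope breaks down, the oocyte takes up water, and the follicle opens to release the egg at ovulation. The chromosomes of the maturing oocyte are condensed and largely silent, and its messenger RNAs are stored, lengthened or shortened at their poly(A) tails and degraded, so that the ovulated egg holds the maternal stock for the early embryo. An oocyte drawn by cannula may still carry follicle cells, which an ovulated egg has left behind.

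The 6 libraries held 7395154 to 9903122 counted fragments over 31061 annotated genes. Values below are normalized counts, meaning fragments divided by a library's scaling factor from the trimmed mean of M values (TMM), so that all libraries have a common effective size. Values in 3s are given in the order of libraries 1, 5 and 9 for oocytes and 2, 6 and 10 for eggs. The oocyte libraries had 15693 to 16665 genes with at least 10 counts and the egg libraries 12564 to 12940. Rank correlation of the libraries over the genes tested was 0.913 to 0.930 among oocytes, 0.939 to 0.948 among eggs and 0.621 to 0.708 between the groups.

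The labelled tissues were first checked against marker genes. The summed level of 18 oocyte genes was 43455, 41539.6 and 43528 normalized counts in the oocytes and 36871, 36909.9 and 37355 in the eggs. The list was thus present in both groups and, with TMM, somewhat lower in every egg library. Its share of all counts fell further, from 0.624%, 0.609% and 0.599% in the oocytes to 0.338%, 0.308% and 0.301% in the eggs. The sum of 18 granulosa genes was 2079, 2273 and 3891 in the oocytes and 40.7, 30.1 and 26.7 in the eggs, and that of 14 theca and steroid-producing genes 10671, 9859.6 and 13492 against 1715, 2179.5 and 2756. Of the 18 oocyte genes 6 fell and 2 rose, of the 10 granulosa genes tested 9 fell, and of the 10 theca genes tested 7 fell and 1 rose (adjusted p as defined below). Over all genes tested 22.7% fell and 17.9% rose, and the counts of every marker list are to be read beside these shares. The oocyte samples therefore held transcripts of the follicle, and the eggs held next to none of the granulosa ones. Most of the theca sum left in the eggs came from that list's only riser, LOC118214003, described below. Of the 10 theca genes tested, 3 had no count in any egg library. In this and every other list, such a gene was tested on its oocyte counts alone and could not rise. Fibroblast and matrix genes summed to 20905, 15715 and 58364 against 1597, 1402 and 1561, with oocyte library 9 above the other 2. Leukocyte genes were uneven within both groups, at 527, 3232 and 1335 in the oocytes and 279, 244 and 1280 in the eggs, highest in oocyte library 5. Smooth muscle genes summed to 6317, 6991 and 6115 against 10954, 10179 and 12054, endothelium genes to 1161, 1504 and 2084 against 935, 724 and 851, red blood cell genes to 2190, 1385 and 3914 against 4523, 2878 and 4489 and epithelium genes to 8851, 10137 and 9936 against 19528, 25171 and 28029. Among tested genes of these lists, 11 fell and 3 rose of 20 for fibroblasts, 5 and 1 of 12 for smooth muscle, 6 and 1 of 15 for endothelium, 3 and 0 of 6 for red blood cells, 1 and 0 of 19 for leukocytes and 4 and 5 of 11 for epithelium. The endothelium falls numbered 3, 2, 1, 2 and 2 without libraries 5, 9, 2, 6 and 10 in turn, the leukocyte falls 2 and 3 without libraries 5 and 10 in turn and the oocyte falls 3 without any 1 of libraries 1 and 6.

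**Figure D1:**
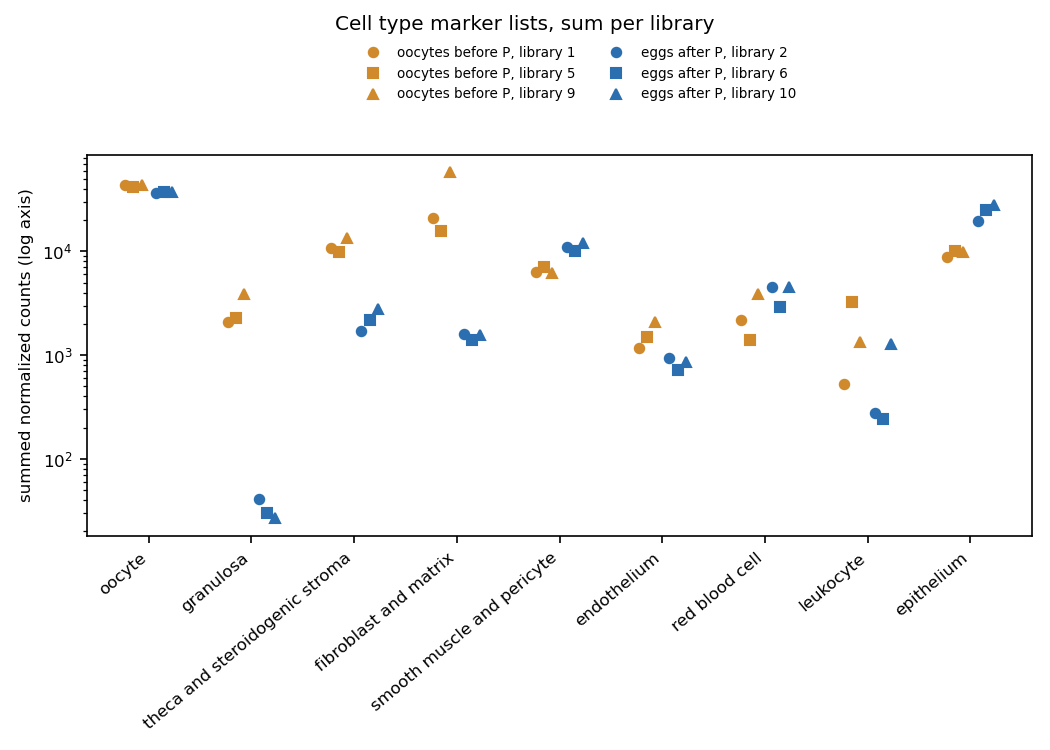
Summed normalized counts (log axis) of 9 lists of cell type marker genes in each of the 6 libraries, with circles, squares and triangles for libraries 1 and 2, 5 and 6, and 9 and 10. With TMM scaling oocyte markers lay between 36871 and 43528 in all libraries, while granulosa markers were at 2079 to 3891 in the oocytes and 26.7 to 40.7 in the eggs. As shares of all counts oocyte markers took 0.599% to 0.624% in the oocytes and 0.301% to 0.338% in the eggs.

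Of 15348 genes with enough counts to be tested, 6227 differed between the eggs and the oocytes, which is 40.6% of those tested. Higher in the eggs were 2744 (17.9%) and lower were 3483 (22.7%). Every one of these 6227 moved the same way in each of the 3 pairs of libraries 1 and 2, 5 and 6, and 9 and 10. The test had picked them from these same libraries, so that agreement is no separate support. These are differentially expressed genes (DEGs) by edgeR's quasi-likelihood test at a Benjamini-Hochberg adjusted p under 0.01, and adjusted p below always means this test. The losses were larger than the gains: 1225 DEGs were lower by more than 4 on the log2 scale and 166 were higher by more than 4, and the median log2 fold change was -3.24 among the lower and 1.97 among the higher DEGs. Egg and oocyte levels did not overlap for 64.7% of the genes tested, 27.8% with all eggs above and 36.9% with all eggs below.

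The direction of small changes depended on the scaling. Over all genes tested the fold change had a log2 median of -0.26 with TMM factors, and dividing by total counts alone moved it to -1.01 and the DEGs to 1295 higher and 5205 lower, that is from 44.1% to 19.9% higher. Among the genes described below as higher in the eggs, cdc20, btg4, ctsba, ctsd, eif4a1b, kars1, LOC118214003, LOC118222194 and LOC118222773 no longer passed with total counts, and of those described as not passing, mos, bmp15, kif11, amh, atp5f1b, hsp90ab1 and LOC118220535 passed as lower. All fold changes below are with TMM, and a list's median is to be read against -0.26. The rises and falls counted in any list are likewise to be read beside the 17.9% higher and 22.7% lower of all genes. The counts are from libraries of poly(A) RNA, in which a change in the number of molecules and a change in tail length are not separated. In the bulk samples, fewer cells of a type and less RNA per cell cannot be told apart either.

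**Figure D2:**
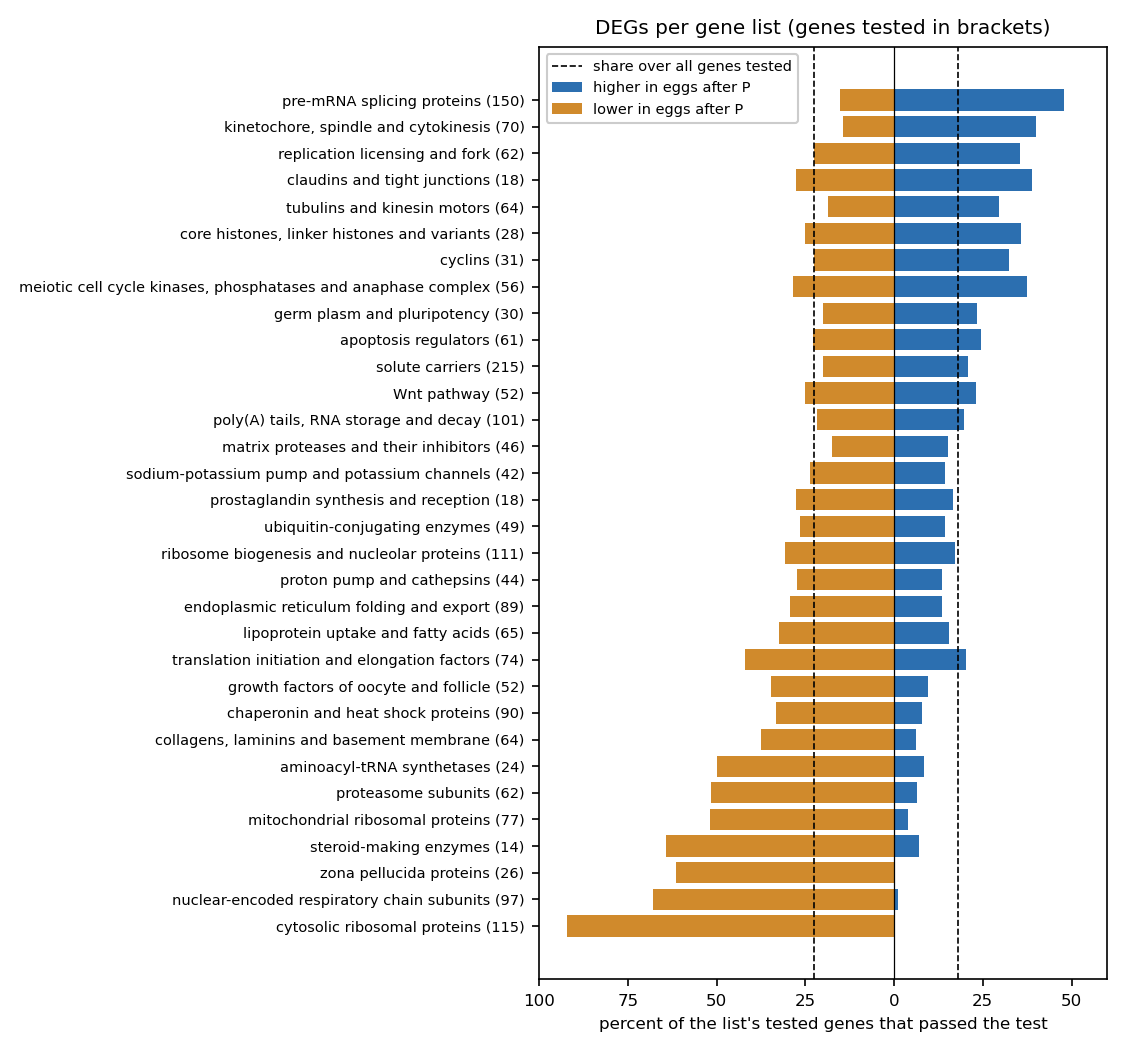
Percent of each list's tested genes that were DEGs, higher in eggs to the right and lower to the left, with the number tested in brackets and dashed lines at 17.9% and 22.7% for all genes. Ribosomal protein genes reached 92.2% lower and splicing genes 48.0% higher. Directions are with TMM scaling, under which 44.1% of all DEGs were higher, against 19.9% when divided by total counts.

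Genes of the follicle and its matrix were prominent among the losses, together with an alpha-2-macroglobulin-like gene that was in no follicle list. The gene with the most counts in the oocyte samples, not corrected for gene length, was alpha-2-macroglobulin-like LOC118235858 (chromosome 9, 19004943 to 19043868, assembly fAngAng1.pri), of a family of secreted protease inhibitors. It had 158288, 162838 and 304906 in the oocytes and 12, 3.76 and 2.97 in the eggs (log2 fold change -14.96 ± 0.64 (SE), adjusted p = 2.7e-06), which was 2.27%, 2.39% and 4.2% of all counts of the oocyte libraries. The eggs kept almost none of it. A collagen alpha-2(I) chain-like gene, LOC118214884 (chromosome 1, 60785509 to 60818934), which encodes a fibrillar collagen of connective tissue, had 19381, 12149 and 55557 in the oocytes and 7.17, 6.27 and 0 in the eggs (log2 fold change -12.55 ± 0.92 (SE), adjusted p = 1.6e-05). Both were highest in oocyte library 9, and the groups did not overlap for either.

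All 8 tested receptors for gonadotropins and sex steroids of the nuclear kind fell. However, 5 of the 8 had no count in any egg library, so they were tested on oocyte counts alone and could not rise. The nuclear progesterone receptor is the transcription factor through which progestins prepare a follicle to rupture, and the eel files hold a pair of genes for it. Of these, pgr (chromosome 12, 40488883 to 40498281) had 1698, 1936 and 2409 in the oocytes and 1.2, 15 and 1.48 in the eggs (log2 fold change -8.36 ± 0.67 (SE), adjusted p = 2.1e-05). The second copy, LOC118235591 (chromosome 9, 40199260 to 40210596), had 1079, 1093 and 1902 in the oocytes and no count in any egg library, at least 345-fold lower against a floor of 3 counts per library. This bound and those below divide the mean of the 3 oocyte libraries by the floor, so a single library can lie under the bound. Transcripts of both nuclear receptors were thus at or near 0 in the eggs. The luteinizing hormone receptor lhcgr had 105, 225 and 88.4 in the oocytes and 0 in every egg library, at least 35.4-fold lower (adjusted p = 1.8e-04), and the follicle-stimulating hormone receptor fshr had 13.1, 28.9 and 14.7 and again 0, at least 4.81-fold lower (adjusted p = 0.0022, but adjusted p = 0.01 and 0.01 without libraries 5 and 6 in turn). An androgen receptor-like gene, LOC118223864, was at 136, 156 and 223 against 0, at least 43.6-fold lower. The estrogen receptors did not vanish entirely: esr1 had 200.4, 238 and 316 in the oocytes and 8.37, 5.01 and 1.48 in the eggs, and esr2b 229.9, 267 and 398 in the oocytes and 17.9, 6.27 and 31.2 in the eggs (log2 fold change -4.02 ± 0.57 (SE), adjusted p = 3.1e-04).

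For the membrane receptors through which fish oocytes sense progestins and genes related to them, no change passed. Of 9 genes in this list, not all of them receptors, 5 were abundant enough to test. Of these, edgeR called 0 at adjusted p under 0.01 and 0 at unadjusted p under 0.05, while DESeq2 also called 0. The progestin receptor paqr5a had 438, 657 and 594 in the oocytes and 202, 332 and 573 in the eggs (95% interval of the log2 fold change -1.48 to 0.26). Paqr7a, the alpha form that mediates maturation in other fish, had 77.7, 53 and 77.6 in the oocytes and 115, 53.9 and 65.3 in the eggs (-0.87 to 1.21). Pgrmc1, a membrane component that binds progesterone, had 700.3, 587 and 466 in the oocytes and 511, 519 and 229 in the eggs (-1.28 to 0.32), and its relative pgrmc2 had 605, 593 and 698 in the oocytes and 719.8, 427 and 778 in the eggs (-0.64 to 0.68). The remaining tested member, nenf, is a secreted relative of these. The intervals leave room for changes of either sign, and paqr5a and paqr7a were chosen after their values were seen. The related paqr3a, which belongs to the same protein family but was not in the list and was also chosen after its values were seen, rose from 34.4, 36.5 and 25.5 to 435, 572 and 453 (log2 fold change 3.91 ± 0.35 (SE), adjusted p = 3.1e-05).

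The enzymes that make steroids fell with the receptors. Of 14 tested, 9 fell and 1 rose. Cytochrome P450 17, the 17-alpha-hydroxylase and 17,20-lyase that turns progestins into androgen precursors, is annotated at a pair of loci. LOC118231945 (chromosome 7, 55003110 to 55009428) had 2039, 2645 and 1987 in the oocytes and 0 in every egg library, at least 565-fold lower, and LOC118218511 (chromosome 18, 28910848 to 28917387) had 4255, 2968 and 5296 in the oocytes and 2.39, 0 and 0 in the eggs. For the latter the egg libraries held too few counts for a firm ratio, and the oocytes were higher by a factor of 4657 (95% counting interval 1289 to 38455). The cholesterol carrier star was at 66.3, 129 and 143 against 0 (at least 28.7-fold lower, adjusted p = 1.8e-04), and hsd17b1, which makes estradiol, at 319.9, 166 and 741 against 0 (at least 104-fold lower). Side-chain cleavage enzyme LOC118215491, which takes the first step from cholesterol, fell less far, from 1360.4, 599.8 and 2728 to 106, 145 and 93.6 (log2 fold change -3.76 ± 0.53 (SE), adjusted p = 2.9e-04).

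Neighbouring genes for 3-beta-hydroxysteroid dehydrogenase, which makes progesterone from pregnenolone, went opposite ways on chromosome 15. LOC118214002 (26107622 to 26110399) had 2174, 2489 and 2066 in the oocytes and 2.39, 43.9 and 1.48 in the eggs (log2 fold change -7.10 ± 0.88 (SE), adjusted p = 1.5e-04), and LOC118214003 (26102255 to 26106327) had 602, 671 and 1006 in the oocytes and 1577, 1959 and 2649 in the eggs (log2 fold change 1.44 ± 0.30 (SE), adjusted p = 0.0025). The first was close to absent from the eggs except for library 6, and the second was higher in every egg library than in any oocyte library. The rise of LOC118214003 was lost with total counts (adjusted p = 0.054) and in fits that left out a library (adjusted p = 0.014, 0.012 and 0.012 without libraries 1, 5 and 10 in turn). The sources do not state how fragments that match both copies were divided.

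Granulosa genes gave the plainest absences. Of 10 tested, 9 fell and 7 had no count in any egg library. Those 7 had enough counts to be tested through the oocytes alone and could not rise, so their falls are no separate support. A further 8 of the 18 listed were too low to test. Foxl2a, a transcription factor that keeps granulosa cells female, was at 614, 737 and 775 in the oocytes (at least 180.1-fold lower in the eggs), krt8, a keratin of the follicular epithelium, at 721, 775 and 1597 (at least 262-fold), and inha, the alpha chain of the hormone inhibin, at 112, 143 and 147 (at least 34.1-fold). All 3 were at 0 in every egg library, with adjusted p of 1.5e-05, 2.5e-05 and 9.3e-05. Anti-Mullerian hormone, amh, was low already before P, at 12.3, 14.5 and 18.7 in the oocytes and 3.59, 0 and 0 in the eggs, and did not pass (adjusted p = 0.018). In limma-voom and with total counts, all 10 granulosa genes tested passed as lower. In all, 339 genes had at least 10 counts in every oocyte library and none in any egg library. They were picked by these counts, so their test calls (321 DEGs and the other 18 below the filter) are no separate support. Their losses were at least 11.9-fold at the median and at least 1938-fold at the most. No gene showed the opposite pattern, with 10 counts in every egg library and none in any oocyte library.

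**Figure D3:**
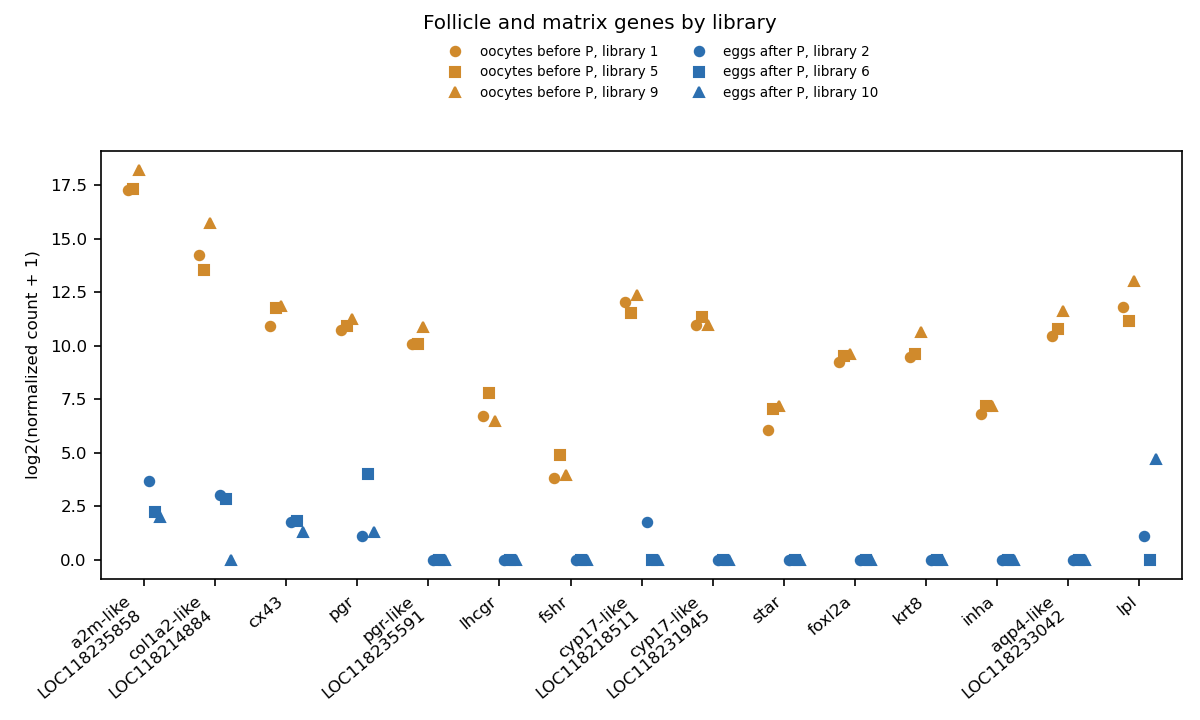
Normalized counts on the scale log2(count + 1) of 15 genes in each of the 6 libraries, most of them from lists of the follicle and its matrix. The alpha-2-macroglobulin-like gene, the aquaporin-4-like gene and lpl come from other lists. Names ending in -like are short forms for the loci printed under them, a2m for alpha-2-macroglobulin, col1a2 for collagen alpha-2(I), cyp17 for 17-alpha-hydroxylase and aqp4 for aquaporin-4. The eggs lie at 0 for 9 of the 15 genes, and no egg library reaches an oocyte library for any of them. All 15 were picked from genes that fell, so this follows from the choice. Over all genes tested, 36.9% had all eggs below all oocytes.

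Transcripts of gap junction genes were among the losses. Of 43 genes in this list 5 had enough counts to be tested, of which 3 fell and 1 rose. The junctions themselves were not measured. Gap junctions are channels built of connexins through which granulosa cells and oocyte exchange small molecules. Connexin 43, cx43, had 1931, 3481 and 3706 in the oocytes and 2.39, 2.51 and 1.48 in the eggs (log2 fold change -10.38 ± 0.48 (SE), adjusted p = 3.9e-06), and cx34.5 had 1046, 571 and 2029.7 against 0 in every egg library, at least 309-fold lower. A gap junction gamma-1-like gene, LOC118214562, fell from 815, 917 and 975 to 264, 247 and 147 (log2 fold change -2.04 ± 0.31 (SE), adjusted p = 4.6e-04), and was still counted in every egg library. The only riser of this list was consortin, cnsta, which directs connexins to the cell surface and is not itself a connexin (35.2, 18.6 and 48.1 in the oocytes and 421, 276 and 310.4 in the eggs).

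Tight junction genes went both ways. Of 18 tested, 7 rose and 5 fell, but there were 4 higher and 7 lower with total counts. With TMM this was 38.9% higher and 27.8% lower, beside 17.9% and 22.7% of all genes. Claudins seal the space between cells. LOC118222776, a putative claudin-24, and LOC118207285, claudin-19-like, were both at 0 in every egg library, from 1603, 1567 and 2686 for the former (at least 496-fold lower) and 417, 551 and 723 for the latter (at least 143-fold lower). By contrast the claudin-like ZF-A89 gene LOC118234813, among the 10 genes with the most counts in the eggs, rose from 20562, 21829 and 20183 to 60904, 65269.7 and 66787 (log2 fold change 1.62 ± 0.20 (SE), adjusted p = 1.6e-04). Cldn7a rose from 3350, 4127 and 2459 to 10582, 11441 and 14517 (log2 fold change 1.88 ± 0.26 (SE), adjusted p = 3.0e-04), and epcam, a cell adhesion molecule that partners claudins, from 1225, 1690 and 2097 to 3713, 7774 and 8944 (log2 fold change 2.03 ± 0.36 (SE), adjusted p = 0.001). The occludin-like genes split as well. LOC118212103 rose from 966, 1718 and 821 to 6889, 7353 and 7524 (log2 fold change 2.63 ± 0.31 (SE), adjusted p = 1.1e-04), and LOC118225222 fell from 295, 246 and 375 to 0, 8.77 and 0 (log2 fold change -6.61 ± 0.89 (SE), adjusted p = 2.4e-04).

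Collagens, laminins and other matrix genes fell more often than they rose, 24 against 4 of 64 tested, with a median of -0.83 (1 higher and 27 lower with total counts, and 8 higher with pairs as a block). Type I collagen col1a2 had 223, 643 and 359 against 0 in every egg library (at least 104-fold lower), and the matrix protein sparc had 291, 756 and 990.3 in the oocytes and 4.78, 0 and 1.48 in the eggs. Matrix proteases and their inhibitors were nearly even, 7 higher and 8 lower of 46, close to the shares over all genes (3 higher and 11 lower with total counts, and falls numbering 5 without any 1 of libraries 9 and 6). Within them a pair of metalloproteinase inhibitor 2-like genes went opposite ways: LOC118216647 fell from 1239, 1630.1 and 1631 to 359.9, 68.9 and 313 (log2 fold change -2.60 ± 0.51 (SE), adjusted p = 0.002), whereas LOC118216473 rose from 138, 107 and 65.8 to 1364, 1183 and 737 (log2 fold change 3.40 ± 0.38 (SE), adjusted p = 9.5e-05). Metalloproteinase adamts1, which cuts the follicle wall at ovulation in mammals, was too low to test, at 0, 26.9 and 14.7 in the oocytes and 0, 1.25 and 0 in the eggs.

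Prostaglandins are lipid signals of ovulation, and of 18 tested genes for them 3 rose and 5 fell, near the 17.9% higher and 22.7% lower of all genes (1 higher and 6 lower with total counts). The rises numbered 1 without any 1 of libraries 1, 5, 9, 6 and 10, and the falls 3 without any 1 of libraries 1, 2 and 6. Ptgs2a, the inducible cyclooxygenase, was low and uneven, at 12.3, 79.2 and 9.82 in the oocytes and 4.78, 1.25 and 10.4 in the eggs (adjusted p = 0.052), with library 5 far above the others, while a prostaglandin G/H synthase 1-like gene, LOC118213010, fell from 958, 779.6 and 669 to 361, 348 and 398 (log2 fold change -1.12 ± 0.27 (SE), adjusted p = 0.0054, but adjusted p = 0.024, 0.011, 0.021, 0.026 and 0.016 without libraries 1, 5, 2, 6 and 10 in turn). Cytosolic phospholipase pla2g4aa, which frees arachidonic acid, had 139.9, 80.6 and 334 in the oocytes and 4.78, 0 and 0 in the eggs (log2 fold change -6.66 ± 1.02 (SE), adjusted p = 4.7e-04). The largest rise of the list, in LOC118214517, from 90.8, 159.8 and 64.8 to 3660.1, 3395 and 4002 (log2 fold change 5.12 ± 0.38 (SE), adjusted p = 1.6e-05), belonged to a prostaglandin F2 receptor negative regulator, which is a membrane partner protein and not an enzyme.

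The 12 largest losses, by the fitted log2 fold change, were LOC118235858, LOC118231945, LOC118235591 and LOC118222776 above and 8 further genes, each at 0 in every egg library. For genes at 0 this fold change depends on the small prior count that the fit adds, so their place in the order is not firm. LOC118210003, a vitamin K-dependent protein S-like gene of a family that binds dying cells and clotting factors, had 3575, 3678 and 15621 (at least 1938-fold lower), and leap2, an antimicrobial peptide that also blocks the ghrelin receptor in mammals, 2301, 481 and 3044 (at least 494-fold). Enpp7.2, a phosphodiesterase of the sphingomyelinase kind, had 92.4, 552 and 15799 (at least 1393-fold on the mean). It varied more than 100-fold among the oocytes, and its bound rests mostly on library 9. Its adjusted p was 0.0039, and it did not pass in DESeq2 or limma-voom or in some fits that left out a library (adjusted p = 0.014, 0.012 and 0.01 without libraries 2, 6 and 10 in turn). The sialyltransferase-like LOC118222571 had 2331, 2164 and 4105, and the sialic acid hydroxylase-like LOC118221926 had 1089, 347 and 3722. LOC118233042, aquaporin-4-like, LOC118235288, a transmembrane 9 superfamily member, and LOC118231252, an uncharacterized gene, were also among the 8. Their oocyte levels were 1392, 1783 and 3186 for the first, 1585, 1322 and 2468 for the second and 1283, 1759.5 and 2988 for the third.

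Cell cycle genes of meiosis were among the gains. Cyclin B1, ccnb1 (chromosome 14, 10448477 to 10451835), the regulatory partner of Cdk1, had the most counts of any gene in the eggs, not corrected for gene length, with 13164, 7735 and 10203 in the oocytes and 138641, 157957 and 187460 in the eggs (log2 fold change 3.96 ± 0.29 (SE), adjusted p = 1.5e-05). Its share of all counts was 0.189%, 0.113% and 0.14% in the oocytes and 1.27%, 1.32% and 1.51% in the eggs, a rise that was present without any scaling factor. Cyclin B2, ccnb2, went from 7784, 5838 and 7853 to 70864, 85368 and 93709 (log2 fold change 3.54 ± 0.25 (SE), adjusted p = 1.5e-05), and cyclin A1, ccna1, an early embryonic cyclin, from 7472, 1499 and 6878 to 72986, 102541 and 110164 (log2 fold change 4.17 ± 0.55 (SE), adjusted p = 2.1e-04). Oocyte library 5 had the lowest level of all 3 of these cyclins. Together the 35 cyclin genes took 0.709%, 0.476% and 0.625% of the counts of the oocytes and 3.05%, 3.45% and 3.76% of those of the eggs.

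The rise was not shared by all cyclins, of which 10 rose and 7 fell among 31 tested, with a median of -0.02 that was 0.06 under DESeq2's size factors (RLE) and -0.78 with total counts. As shares, 32.3% of the cyclins tested rose and 22.6% fell, beside 17.9% and 22.7% of all genes. The falls numbered 4 without any 1 of libraries 1, 9, 2 and 6. Cyclin B3, ccnb3, required for the first meiotic anaphase in mice, had 3305, 2324 and 2512 in the oocytes and 88.5, 46.4 and 49 in the eggs (log2 fold change -5.46 ± 0.36 (SE), adjusted p = 1.5e-05), opposite to its relatives B1 and B2. Cyclin G1, ccng1, tied to stress responses, fell from 1409, 1959 and 1466 to 139.9, 57.7 and 198 (log2 fold change -3.62 ± 0.43 (SE), adjusted p = 1.3e-04). A pair of cyclin-J-like genes rose, LOC118236341 from 95.7, 140.5 and 70.7 to 1279, 1733 and 2115 and LOC118222834 from 10.6, 9.64 and 12.8 to 554, 372 and 224, with log2 fold changes of 4.06 ± 0.36 (SE) and 5.11 ± 0.48 (SE). The partner kinase fell: cdk1 had 1824, 1041 and 1953 in the oocytes and 636, 773 and 575 in the eggs (log2 fold change -1.28 ± 0.30 (SE), adjusted p = 0.0046), all 3 eggs below all 3 oocytes. This call was lost in the fit of all 12 libraries (adjusted p = 0.021) and in most fits that left out a library (adjusted p = 0.019, 0.017, 0.021, 0.012 and 0.024 without libraries 1, 9, 2, 6 and 10 in turn).

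Kinases, phosphatases and anaphase complex genes of meiosis gave 21 higher and 16 lower of 56, with a median of 0.50 that turned to -0.25 with total counts (13 higher and 20 lower with total counts). With TMM 37.5% rose and 28.6% fell, beside 17.9% and 22.7% of all genes. Cdc25b, the phosphatase that turns Cdk1 on, was low before P and rose from 42.5, 49.6 and 20.6 to 2164, 3420.3 and 2388 (log2 fold change 6.13 ± 0.41 (SE), adjusted p = 1.5e-05), and the M-phase inducer phosphatase 1-B-like LOC118222606, a second member of that family, from 746, 1007 and 840 to 7441, 7449.7 and 9335 (log2 fold change 3.22 ± 0.25 (SE), adjusted p = 1.8e-05). Wee2, the oocyte kinase that holds Cdk1 off, rose as well, from 1207, 1055 and 1401 to 6274, 7903 and 8850.5 (log2 fold change 2.65 ± 0.25 (SE), adjusted p = 3.7e-05). Normalized counts were therefore higher in the eggs on both sides of the switch. Mos, the kinase that keeps the egg in its second arrest, had 4485, 4708 and 5173 in the oocytes and 3387, 2668 and 3663 in the eggs and did not pass (log2 fold change -0.56 ± 0.22 (SE), adjusted p = 0.053). Fbxo43, which blocks the anaphase-promoting complex in that arrest, was too low to test, at 0, 0 and 0 in the oocytes and 0, 22.6 and 20.8 in the eggs.

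Several genes that act at anaphase rose. Polo-like kinase plk1 rose from 3921, 4313 and 4734 to 24653, 37476 and 40835 (log2 fold change 2.99 ± 0.27 (SE), adjusted p = 3.0e-05), the anaphase activator cdc20 from 25466, 19349 and 41897 to 72229, 99707 and 126328 (log2 fold change 1.78 ± 0.33 (SE), adjusted p = 0.0014), securin pttg1 from 9221, 6518 and 7891 to 34965, 29077 and 38801 and separase espl1 from 959, 1639 and 758 to 6903, 10309.7 and 11587. Aurora kinase A, aurka, was above its oocyte levels in all eggs but did not pass, at 3287, 4754 and 5262 in the oocytes and 6647, 7712 and 9480.1 in the eggs (log2 fold change 0.84 ± 0.26 (SE), adjusted p = 0.018), although it did with pairs as a block (adjusted p = 0.0059) and in DESeq2. Among 70 kinetochore, spindle and cytokinesis genes 28 rose and 10 fell. Their median was 0.60 and turned to -0.14 when libraries were divided by total counts, with 18 higher and 19 lower.

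Within that list the contractile ring protein anillin, anln, rose most clearly, from 264, 298 and 224 to 9232, 12083 and 12337 (log2 fold change 5.42 ± 0.28 (SE), adjusted p = 5.8e-06). Tpx2, which nucleates spindle microtubules, rose from 3836, 5132 and 4064 to 41139.9, 53139 and 54194 and the chromosome-arm motor kif22 from 3246, 2022 and 3825 to 24572, 31067 and 35789, with log2 fold changes of 3.51 ± 0.25 (SE) and 3.33 ± 0.31 (SE). Centromere protein S, cenps, and the kinetochore protein zw10 fell, cenps from 958, 372 and 749 to 40.7, 25.1 and 49 and zw10 from 717, 487 and 483 to 75.3, 89 and 71.3. The spindle motor kif11 had 9188, 10628 and 8810.3 in the oocytes and 8115, 5218 and 5487 in the eggs and did not pass (adjusted p = 0.057). Protein phosphatase 2A, which opposes mitotic kinases, was lower in its catalytic subunit ppp2cab, which fell from 1738, 1880.1 and 1769 to 75.3, 37.6 and 80.2 (log2 fold change -4.80 ± 0.35 (SE), adjusted p = 1.6e-05). Its regulatory subunit ppp2r5a fell from 948, 1063 and 897 to 84.9, 66.4 and 56.4. Among 64 tubulin and kinesin motor genes, the tracks and motors of the spindle, 19 rose and 12 fell, with a median of 0.38 that turned to -0.37 with total counts (10 higher and 19 lower with total counts). With TMM 29.7% of them rose and 18.8% fell, beside 17.9% and 22.7% of all genes.

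**Figure D4:**
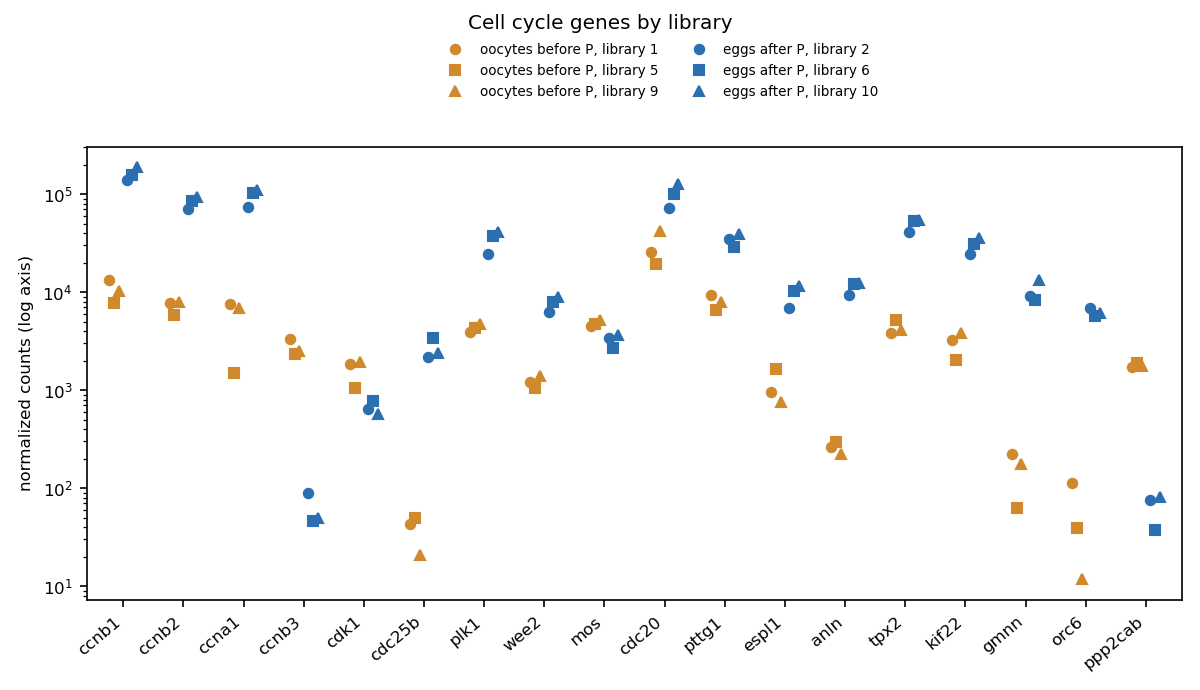
Normalized counts (log axis) of 18 cell cycle genes in each of the 6 libraries, with orange for oocytes before P and blue for eggs after P. Cyclin B1 moves from 7735 to 13164 in the oocytes to 138641 to 187460 in the eggs, while ccnb3, cdk1 and ppp2cab lie lower in every egg library and mos did not pass the test.

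DNA replication genes, which the embryo needs for its rapid cleavage cycles, gave 22 higher and 14 lower of 62, with a median of 0.01 that was -0.15 with upper-quartile scaling and -0.74 with total counts (15 higher and 21 lower with total counts). As shares, 35.5% of the replication genes rose and 22.6% fell, beside 17.9% and 22.7% of all genes. The falls numbered 8, 7, 9 and 8 without libraries 1, 2, 6 and 10 in turn. Geminin, gmnn, which stops origins from firing again, rose from 220.1, 62 and 177 to 9072, 8276 and 13356 (log2 fold change 6.07 ± 0.50 (SE), adjusted p = 2.4e-05), and orc6, a subunit of the origin recognition complex, from 112, 39.3 and 11.8 to 6954, 5670 and 6047 (log2 fold change 6.83 ± 0.70 (SE), adjusted p = 5.7e-05). The helicase loader cdc6 went from 1601, 1550.2 and 1174 to 8164, 8098 and 8506, and the helicase subunit mcm7 from 2019.8, 2365 and 1634 to 10294, 10549 and 9949. A sister subunit of the same helicase, mcm4, fell from 1282, 2129 and 2095 to 129, 201 and 232 (log2 fold change -3.30 ± 0.34 (SE), adjusted p = 5.6e-05), and mcm3 had 1577, 1809 and 1760.5 in the oocytes and 1773, 2274 and 1926 in the eggs and did not pass (adjusted p = 0.43). The same complex thus held genes that rose, fell and did not pass.

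Histones and chromatin enzymes also changed. Of 28 histone genes tested, 10 rose and 7 fell, with a median of 0.23 that turned to -0.52 with total counts (7 higher and 10 lower with total counts). As shares, 35.7% of the histone genes rose and 25% fell, beside 17.9% and 22.7% of all genes. The falls numbered 4 without any 1 of libraries 2 and 6, and 3 with at least 50 counts in 3 libraries. The replacement histone H3.3A is encoded by several copies that rose together, among them LOC118216390 (3773, 3379 and 3858 in the oocytes and 17831, 20485 and 24278 in the eggs) and LOC118219452 (6420.2, 6519.6 and 3859.9 in the oocytes and 18519, 27484 and 23537 in the eggs), with log2 fold changes of 2.51 ± 0.23 (SE) and 2.05 ± 0.28 (SE). Since these copies are alike, the division of fragments between them is uncertain. Linker histone H1.0-B, LOC118216562, fell from 1275, 1815 and 1419 to 15.5, 2.51 and 17.8 (log2 fold change -6.98 ± 0.55 (SE), adjusted p = 1.9e-05). By the fitted fold change the largest gain was in suv39h1a, a methyltransferase that places the heterochromatin mark on lysine 9 of histone H3, with 0.818, 0 and 0.982 in the oocytes and 261, 432 and 496 in the eggs (log2 fold change 9.20 ± 0.67 (SE), adjusted p = 1.6e-05). Its oocyte libraries held 1, 0 and 1 counts, so that this fold change depends on the prior count and is no bound, and the ratio of eggs to oocytes was 718 (95% counting interval 198 to 5935). The maintenance DNA methyltransferase dnmt1, chosen after its values were seen, rose from 8314, 14998 and 7774 to 39928, 53282 and 52048 (log2 fold change 2.22 ± 0.30 (SE), adjusted p = 2.5e-04).

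Others of the 12 largest gains also began from a low level in the oocytes. Tent4a, which adds mixed tails that shield messenger RNAs from deadenylation, rose from 29.5, 22 and 14.7 to 3465, 7700.3 and 6524 (log2 fold change 8.04 ± 0.46 (SE), adjusted p = 9.8e-06). Gas2l1, which links actin to microtubules, went from 4.91, 8.95 and 0.982 to 495, 479 and 233, and zc3hc1, a partner of cyclin B1, from 69.5, 39.9 and 15.7 to 2505, 2885 and 3638. The groups did not overlap for either. LOC118221615, a protein tyrosine kinase 7-like receptor of the Wnt pathway, rose from 81, 13.1 and 16.7 to 3434, 4748 and 6439, raver1, a splicing co-regulator, from 57.3, 17.9 and 3.93 to 2431, 3458 and 1213, and LOC118231133, a chromatin remodelling protein of the cat eye syndrome region, from 17.2, 61.3 and 12.8 to 2145, 2851 and 3044. Further members were tmcc3 (0, 0 and 0.982 in the oocytes and 67, 68.9 and 151 in the eggs, a ratio of 341 (95% counting interval 60.5 to 13524)), LOC118208328, an uncharacterized gene (17.2, 17.2 and 17.7 in the oocytes and 914, 1504 and 1679.5 in the eggs), and cdc25b and orc6 above. Each of those named had an adjusted p of 1.5e-04 or less.

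Pre-mRNA splicing proteins rose more often than any other list of 10 or more tested genes, with 72 higher and 23 lower of 150 and a median of 0.89, which stayed positive at 0.14 under total counts with 41 higher and 35 lower. The falls numbered 15 without library 9. Hnrnpm, an RNA-binding splicing regulator, went from 750.2, 910.4 and 716 to 9991, 10926 and 10332 (log2 fold change 3.72 ± 0.24 (SE), adjusted p = 1.4e-05), snrpa, a protein of the U1 particle, from 379.6, 133 and 174 to 7332, 8324 and 7015, and dhx8, the helicase that releases the spliced product, from 212, 148 and 132 to 2829, 3340.1 and 3639.7. The heterogeneous nuclear ribonucleoprotein A0-like gene LOC118222665 was among the 10 genes with the most counts in the eggs, at 13539.8, 12778 and 11731 in the oocytes and 79374, 79024 and 102716 in the eggs (log2 fold change 2.78 ± 0.23 (SE), adjusted p = 2.3e-05). Against the trend, yju2 fell from 1203, 826 and 915 to 53.8, 71.4 and 68.3.

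Genes for poly(A) tails, RNA storage and decay gave 20 higher and 22 lower of 101 tested, near the 17.9% higher and 22.7% lower of all genes, and 10 higher and 36 lower with total counts. The falls numbered 14 without any 1 of libraries 1 and 6. Zar1l, a germ-cell protein that stores maternal messenger RNA, fell from 6194, 6316 and 6339 to 307, 173 and 215 (log2 fold change -4.76 ± 0.30 (SE), adjusted p = 1.2e-05), and its relative zar1 from 146, 105 and 153 to 45.4, 30.1 and 28.2 (log2 fold change -1.95 ± 0.44 (SE), adjusted p = 0.0039, but adjusted p = 0.018, 0.017, 0.017 and 0.015 without libraries 1, 9, 6 and 10 in turn). The deadenylase parn fell from 6562, 4387 and 3543 to 277, 144 and 221 (log2 fold change -4.49 ± 0.36 (SE), adjusted p = 2.2e-05), whereas the deadenylase subunits cnot8 (3041, 2764 and 2808 in the oocytes and 14337, 17761 and 21274 in the eggs) and pan3 (1474, 1902 and 1032 in the oocytes and 8851, 11197 and 11792 in the eggs) rose. Btg4, the adaptor that brings the deadenylase complex to maternal messages in mammals, rose slightly, from 11523, 10588 and 12349 to 18323, 22543 and 20081 (log2 fold change 0.82 ± 0.21 (SE), adjusted p = 0.0076), a rise lost with total counts, with upper-quartile scaling and in fits that left out a library (adjusted p = 0.025, 0.022, 0.01, 0.036 and 0.019 without libraries 1, 5, 9, 6 and 10 in turn). The embryonic poly(A)-binding protein pabpc1l fell from 1063, 1450.3 and 1553 to 199.7, 248 and 134 (log2 fold change -2.80 ± 0.32 (SE), adjusted p = 1.0e-04).

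In zebrafish, nanog, pou5f3 and sox19b start transcription of the embryonic genome. Nanog rose from 2156, 1622 and 1432 to 16021, 13966 and 18181 (log2 fold change 3.21 ± 0.26 (SE), adjusted p = 2.1e-05), pou5f3 from 316, 169 and 40.3 to 6360, 6725 and 3784 (32.0-fold on the fitted scale, adjusted p = 2.0e-04), and sox19b from 7608, 6783 and 6228 to 20719, 22186 and 24024 (log2 fold change 1.70 ± 0.21 (SE), adjusted p = 1.6e-04). Before P, pou5f3 was uneven, with library 9 lowest. Of germ plasm genes, ddx4 (vasa) rose from 48.3, 42.7 and 24.6 to 728, 1189 and 1443, dnd1 from 7.36, 5.51 and 2.95 to 234, 223 and 184 and nanos3 from 909, 546 and 607 to 2319.7, 2745 and 3506. Bucky ball-like LOC118224941, of the family that gathers the germ plasm, fell from 2138, 3027 and 2031 to 236, 346 and 595 (log2 fold change -2.61 ± 0.37 (SE), adjusted p = 3.0e-04), but its relative LOC118233078 did not pass (6889, 7285 and 6521 in the oocytes and 7270, 3044 and 4508 in the eggs, adjusted p = 0.21). Of 30 genes in this list 7 rose and 6 fell, near the 17.9% higher and 22.7% lower of all genes, with a median of 0.74. There were 7 higher and 9 lower with total counts, and the median was then 0.0059.

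Among lists of 10 or more tested genes, the cytosolic ribosome had the highest share of losses. Of 115 tested ribosomal protein genes 106 fell and 0 rose, against 22.7% lower over all genes, with a median log2 fold change of -4.31 and between 105 and 107 lower under the other scalings. Their share of all counts was 1.67%, 1.44% and 2.28% in the oocytes and 0.0958%, 0.117% and 0.0896% in the eggs. Rpl12 had 3318, 3167 and 3156 in the oocytes and 143, 170.4 and 109.9 in the eggs (log2 fold change -4.50 ± 0.28 (SE), adjusted p = 1.1e-05), rps20 2817, 2277 and 3191 in the oocytes and 194, 206 and 192 in the eggs (log2 fold change -3.81 ± 0.26 (SE), adjusted p = 1.5e-05) and rpsa 2599, 2766 and 2696 in the oocytes and 62.2, 127 and 109.9 in the eggs (log2 fold change -4.75 ± 0.33 (SE), adjusted p = 1.5e-05), and the egg values of each lay close together.

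**Figure D5:**
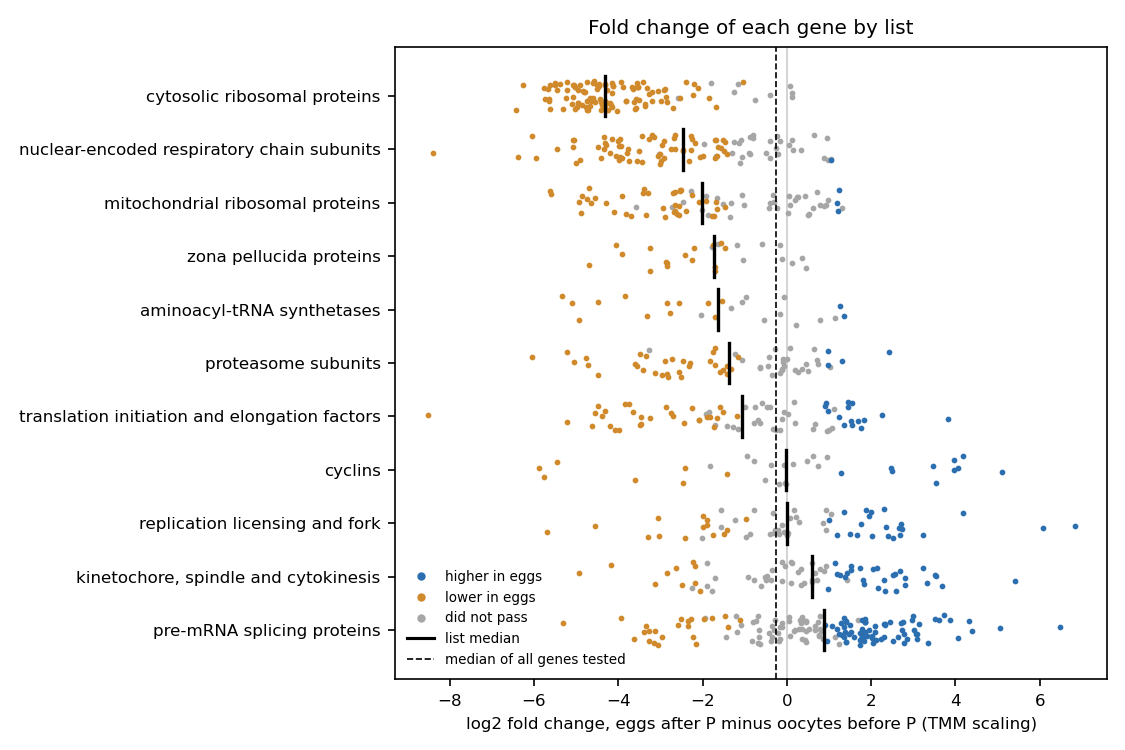
Log2 fold change (eggs minus oocytes, TMM scaling) of each tested gene in 11 lists, with black bars for list medians and a dashed line at -0.26, the median of all genes. Ribosomal protein genes centre on -4.31 and splicing genes on 0.89, which is 0.14 with total counts. The medians of the kinetochore and replication lists, here 0.60 and 0.01, become -0.14 and -0.74 with total counts.

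The translation factors that work with the ribosome fell in part. Of 74, 31 fell and 15 rose (5 higher and 40 lower with total counts). Elongation factors led the losses, with eef1g at 3771, 2606 and 3471 in the oocytes and 90.9, 82.7 and 89.1 in the eggs (log2 fold change -5.23 ± 0.28 (SE), adjusted p = 6.3e-06), elongation factor 1-alpha-like LOC118233278 at 18629, 14806 and 25681 in the oocytes and 1606, 1894 and 1772 in the eggs and elongation factor 2 LOC118225885 at 1912, 2600.4 and 3578 in the oocytes and 103, 119 and 168 in the eggs. Initiation factors rose in some cases, such as the helicase eif4a1b from 11688, 10455 and 9511 to 27921, 28118 and 30142 (log2 fold change 1.45 ± 0.21 (SE), adjusted p = 3.5e-04) and eif3s10 from 1947, 2932 and 1954 to 7439, 7149 and 7498 (log2 fold change 1.69 ± 0.24 (SE), adjusted p = 3.4e-04). The summed level of the list was 135623, 117342 and 140557 in the oocytes and 178358, 178105 and 212132 in the eggs, while its share of all counts was 1.95%, 1.72% and 1.93% in the oocytes and 1.63%, 1.49% and 1.71% in the eggs, so that the direction of the sum turned with the scaling. The median of the list was -1.07. Among 24 aminoacyl-tRNA synthetase genes, which charge tRNAs, 12 fell and 2 rose (0 higher and 18 lower with total counts, and rises numbering 1 without any 1 of libraries 1, 5, 9, 6 and 10), for example gars1 from 1236, 888 and 1064 to 12, 18.8 and 49 and kars1 from 3379, 2857 and 3273 up to 7416, 6987 and 8457.

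Nucleolar factors that assemble ribosomes gave 34 lower and 19 higher of 111, beside the 17.9% higher and 22.7% lower of all genes (7 higher and 51 lower with total counts). Ppan, needed for the large subunit, fell from 1693, 1353 and 1125 to 41.9, 26.3 and 35.6 (log2 fold change -5.32 ± 0.34 (SE), adjusted p = 1.5e-05), and nucleolin, ncl, from 1996, 1721 and 1395 to 82.5, 62.7 and 148 (log2 fold change -4.13 ± 0.38 (SE), adjusted p = 3.5e-05). Nucleophosmin npm1a rose from 2515, 2559 and 2010 to 8559, 9835 and 10099 (log2 fold change 2.01 ± 0.22 (SE), adjusted p = 9.0e-05), unlike its oocyte-restricted relative npm2b, which fell from 4427, 2799 and 3635 to 1497, 887 and 1696 (log2 fold change -1.41 ± 0.30 (SE), adjusted p = 0.0029, but adjusted p = 0.014, 0.01 and 0.014 without libraries 1, 2 and 6 in turn).

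Mitochondrial genes encoded in the nucleus fell more often than they rose. Of 97 respiratory chain subunits 66 fell and 1 rose, with a median of -2.47, and of 77 mitochondrial ribosomal proteins 40 fell and 3 rose, with a median of -2.02 (0 higher and 49 lower with total counts, and rises numbering 0, 1, 0 and 1 without libraries 1, 5, 6 and 10 in turn). Ndufb2, of complex I, had 968, 731 and 689.7 in the oocytes and 43, 40.1 and 37.1 in the eggs (log2 fold change -4.31 ± 0.33 (SE), adjusted p = 1.7e-05), and atp5mc1, the ring subunit of ATP synthase, 1505, 1132 and 1370.5 in the oocytes and 47.8, 92.7 and 57.9 in the eggs (log2 fold change -4.33 ± 0.35 (SE), adjusted p = 2.1e-05). The catalytic subunit atp5f1b had 10816, 10482 and 18729 in the oocytes and 4595, 10249.5 and 8001 in the eggs and did not pass (adjusted p = 0.067). A cytochrome b-c1 subunit 8 gene, LOC118222194, rose from 1454, 1328 and 1887 to 2798, 3086 and 3723 (log2 fold change 1.04 ± 0.24 (SE), adjusted p = 0.0047), which was the only rise in the list and was lost with total counts, with upper-quartile scaling and in fits that left out a library (adjusted p = 0.022, 0.018, 0.015 and 0.022 without libraries 1, 5, 6 and 10 in turn).

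Of 62 proteasome subunit genes 32 fell and 4 rose (1 higher and 40 lower with total counts, and rises numbering 2 without any 1 of libraries 5, 9, 2, 6 and 10). Psmb2, a catalytic subunit of the core, fell from 1132, 638 and 715 to 20.3, 25.1 and 29.7 (log2 fold change -5.05 ± 0.39 (SE), adjusted p = 1.8e-05), while psme4a, the activator that replaces the regulatory cap in male germ cells of mice, rose from 119, 188 and 167 to 545, 1173 and 803 (log2 fold change 2.41 ± 0.36 (SE), adjusted p = 4.4e-04). Of 90 chaperones 30 fell and 7 rose (2 higher and 43 lower with total counts, and rises numbering 4, 4, 3, 3 and 3 without libraries 5, 9, 2, 6 and 10 in turn), while hsp90ab1, a cytosolic member, had 26035, 25043 and 22807 in the oocytes and 18413, 21553 and 11048 in the eggs and did not pass (adjusted p = 0.12). In the endoplasmic reticulum 26 of 89 fell and 12 rose, beside the 17.9% higher and 22.7% lower of all genes (7 higher and 39 lower with total counts, and falls numbering 17 without any 1 of libraries 9 and 10), with the exchange factor sil1 going from 3139.7, 2886 and 3855 to 34.7, 28.8 and 19.3 (log2 fold change -6.88 ± 0.34 (SE), adjusted p = 5.7e-06). For ubiquitin-conjugating enzymes, 13 lower and 7 higher of 49 was near the shares over all genes (2 higher and 23 lower with total counts, and rises numbering 4 without any 1 of libraries 1, 9 and 6).

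Between the same libraries the marker sums went both ways. Granulosa fell from 2079 to 3891 down to 26.7 to 40.7 and fibroblast from 15715 to 58364 down to 1402 to 1597. Theca and endothelium sums also fell, while those of leukocytes and red blood cells overlapped between the groups. With TMM the smooth muscle sum rose from 6115 to 6991 up to 10179 to 12054. The epithelium sum rose from 8851 to 10137 up to 19528 to 28029. As shares of all counts the smooth muscle sums overlapped, at 0.0907%, 0.103% and 0.0842% in the oocytes and 0.100%, 0.0850% and 0.0970% in the eggs. The epithelium share was higher in every egg library, at 0.127%, 0.149% and 0.137% against 0.179%, 0.210% and 0.226%. The tested genes of these lists did not rise together. For smooth muscle 5 fell and 1 rose of 12, with a median log2 fold change of -1.70. For epithelium 4 fell and 5 rose of 11, with a median of -0.78. The part of the follicle cells in the falls of the lists above was not tested. Of the oocyte markers 6 of 18 fell, beside 22.7% of all genes, namely zar1l, zar1, npm2b, LOC118224941, zp3c (2340.5, 1349 and 1567 in the oocytes and 618, 279 and 247 in the eggs) and gdf9 (203, 116 and 161 in the oocytes and 22.7, 43.9 and 54.9 in the eggs), while 2 rose. With total counts 9 fell and 1 rose.

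The egg envelope is built of zona pellucida proteins, which eels make in the ovary. Of 26 tested genes 16 fell and 0 rose, with a median of -1.74. The zona pellucida sperm-binding protein 3-like LOC118233982 had 1230.4, 1357 and 875 in the oocytes and 90.9, 86.5 and 28.2 in the eggs (log2 fold change -4.06 ± 0.46 (SE), adjusted p = 9.1e-05), and the protein 4-like LOC118229173 695, 195 and 868 in the oocytes and 31.1, 20.1 and 16.3 in the eggs (log2 fold change -4.69 ± 0.60 (SE), adjusted p = 1.8e-04), with oocyte library 5 below the other 2. Protein 4-like LOC118234290 and zpax1 did not pass, the former with 807, 529 and 1397 in the oocytes and 996, 1430 and 1341 in the eggs and the latter with 1257, 764 and 1245 in the oocytes and 725, 1189 and 1093 in the eggs. The division of fragments between alike copies is uncertain here too.

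Bmp15, which the oocyte sends to granulosa cells, did not pass, with 2448, 2706 and 2649 in the oocytes and 2095, 2675 and 2667 in the eggs (95% interval of the log2 fold change -0.56 to 0.42), while its partner gdf9 fell (log2 fold change -1.98 ± 0.47 (SE), adjusted p = 0.0053, but adjusted p = 0.025, 0.015, 0.019 and 0.018 without libraries 1, 9, 2 and 6 in turn). On the receiving side bmpr1ba, a bone morphogenetic protein receptor, had 124, 210 and 334 in the oocytes and 2.39, 0 and 0 in the eggs, so that the oocytes were higher by a factor of 249 (95% counting interval 68.6 to 2057). The ligand bmp6 had 137, 178 and 256 against 0 in the eggs (at least 48.4-fold lower). The activin receptor acvr1ba rose, from 466, 421 and 283 to 3563, 3175 and 2963 (log2 fold change 3.05 ± 0.27 (SE), adjusted p = 3.1e-05). Over the 52 genes tested, 18 fell and 5 rose (3 higher and 23 lower with total counts). With TMM this was 34.6% lower and 9.6% higher, beside 22.7% and 17.9% of all genes.

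Water and ion transport, through which the fish oocyte swells before ovulation, was covered by few testable aquaporins. All 3 testable aquaporin genes fell, but 2 of them had no count in any egg library and so could not rise. Aquaporin-4-like LOC118233042, at 0 in all eggs, is given above. A pair of aquaporin-1-like genes lie side by side on chromosome 8: LOC118234673 (20670406 to 20674602) had 909.7, 485 and 948 in the oocytes and 69.4, 66.4 and 122 in the eggs (log2 fold change -3.19 ± 0.40 (SE), adjusted p = 1.7e-04), and LOC118234674 (20678060 to 20680586) had 76.1, 457 and 262 against 0, at least 67.4-fold lower. Of the 3, LOC118234673 was the one still counted in every egg library. Sodium pump genes went both ways. The beta subunit atp1b1a fell from 5771, 3818 and 5679 to 32.3, 15 and 47.5 (log2 fold change -7.34 ± 0.45 (SE), adjusted p = 1.2e-05), whereas the alpha-1-like subunit LOC118223159 rose from 615, 917 and 742 to 7460.1, 8619 and 7340.2 (log2 fold change 3.36 ± 0.25 (SE), adjusted p = 1.7e-05). A further beta-1 subunit, LOC118222773, rose from 8676, 7519 and 5127 to 23696, 19479 and 20894. Of the list of 42 pump and potassium channel genes, 10 fell and 6 rose, near the 17.9% higher and 22.7% lower of all genes (1 higher and 16 lower with total counts). The rises numbered 3 without any 1 of libraries 1, 6 and 10.

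Lysosomal enzymes split yolk proteins into the amino acids that draw water into the oocyte. Cathepsin L, ctsla, rose from 599.6, 1362 and 2050.3 to 15259, 16923 and 16082 (log2 fold change 3.59 ± 0.41 (SE), adjusted p = 1.0e-04) and cathepsin D, ctsd, from 1061, 1706 and 1687 to 3404, 6233 and 6284 (log2 fold change 1.84 ± 0.31 (SE), adjusted p = 8.7e-04). Cathepsin B, ctsba, which was chosen after its values were seen, rose from 21552, 16661 and 28354 to 47372, 65108 and 71262 (log2 fold change 1.46 ± 0.27 (SE), adjusted p = 0.0014), and the cathepsin S-like LOC118220535 did not pass, at 38435, 35023 and 65477 in the oocytes and 35339.5, 28381 and 30672 in the eggs (adjusted p = 0.11). Atp6v1c1b, a subunit of the proton pump that acidifies the lysosome, fell from 1258, 934 and 885 to 4.78, 6.27 and 22.3. Over the list 6 of 44 genes rose and 12 fell, near the 17.9% higher and 22.7% lower of all genes (2 higher and 16 lower with total counts). The falls numbered 7 without library 6.

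Solute carriers, with 45 higher and 43 lower of 215, were close to the shares over all genes (28 higher and 62 lower with total counts). Slc6a14, an amino acid importer, rose from 304, 134 and 102 to 4042, 4506 and 5183 (log2 fold change 4.67 ± 0.43 (SE), adjusted p = 3.6e-05), and slc27a6, a fatty acid importer, fell from 1841, 1688 and 1600.3 to 34.7, 16.3 and 7.42 (log2 fold change -6.42 ± 0.49 (SE), adjusted p = 1.7e-05). Of 65 genes of lipid uptake and fatty acids 10 rose and 21 fell (5 higher and 27 lower with total counts, and 16 higher with pairs as a block). As shares, 15.4% of the lipid genes rose and 32.3% fell, beside 17.9% and 22.7% of all genes. The rises numbered 6 without any 1 of libraries 1 and 6 and the falls 12 without any 1 of libraries 9 and 6. Lipoprotein lipase lpl, which feeds oil droplets to the growing fish oocyte, fell from 3589, 2319 and 8455 to 1.2, 0 and 25.2 (log2 fold change -9.18 ± 1.04 (SE), adjusted p = 9.4e-05), while fatty acid synthase fasn rose from 707, 1189 and 613 to 4606, 5936 and 5131 (log2 fold change 2.64 ± 0.30 (SE), adjusted p = 1.0e-04). Vitellogenin-type and alpha-2-macroglobulin-like genes had 3 lower of 7 tested, but 5 with pairs as a block, 5 with total counts and 7 in DESeq2.

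Wnt and apoptosis genes moved in both directions, each list in shares near the 17.9% higher and 22.7% lower of all genes. In the Wnt list 12 rose and 13 fell of 52 (8 higher and 20 lower with total counts, and falls numbering 6, 6, 8 and 6 without libraries 5, 2, 6 and 10 in turn), with the receptor fzd10 falling from 1075, 848 and 1128 to 22.7, 53.9 and 75.7 (log2 fold change -4.33 ± 0.45 (SE), adjusted p = 5.8e-05) and the kinase gsk3ab rising from 233, 443 and 208 to 3421, 4806 and 4139 (log2 fold change 3.80 ± 0.35 (SE), adjusted p = 3.6e-05). Among apoptosis regulators 15 rose and 14 fell of 61 (9 higher and 24 lower with total counts, and falls numbering 9 without any 1 of libraries 1 and 2). Ddit4-like LOC118227066, of a stress-induced family that restrains the kinase mTOR, rose from 42.5, 31.7 and 25.5 to 1491, 2232 and 2066 (log2 fold change 5.85 ± 0.34 (SE), adjusted p = 1.1e-05), and the survival protein birc5b from 1509, 1028 and 1805 to 4521, 6926 and 6572. The death receptor fas fell from 171, 118 and 282 to 14.3, 8.77 and 32.7 (log2 fold change -3.36 ± 0.60 (SE), adjusted p = 0.0011).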

How the data were processed

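Per the study's methods, poly(A) libraries were prepared with a stranded kit, reads were aligned to the European eel genome (assembly fAngAng1.pri) with TopHat 2.0.13, secondary alignments were removed with SAMtools 1.2, and HTSeq 0.6.1p1 counted reads per gene. No source states the strand setting used for counting. The deposited values used are these raw counts, one column per library, for 31061 genes. Columns headed as comparisons of the authors, with fold changes and p-values from DESeq, were not used, and 0 columns of samples were left unmapped. All 29999 numeric gene identifiers matched the reference table, which gave the gene positions.

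Counts of the 6 libraries were tested with edgeR 4.0.16 (R 4.3.3) by the quasi-likelihood test, with TMM factors, after a filter for low counts (minimum count 10, minimum total 15), without pairs, and adjusted by Benjamini-Hochberg. The threshold was 0.01, and the scripts were tested on simulated data. The SE of a log2 fold change is its absolute value divided by the square root of the test's F statistic. The 95% intervals were built from that SE, so both are approximate. Alternatives were other scalings and filters, DESeq2 1.42.0, limma-voom (limma 3.58.1), all 12 libraries of the series in 1 fit, thinned libraries, a pair block and leaving out each library. The 6 samples left out of the main comparison belong to females given another progestin. Counts were not corrected for gene length, so an order of genes by counts is not an order of levels.

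Lists of genes were drawn from symbols and product names. The members and lists were chosen with earlier results of these data known. Genes named are drawn from the 12 largest changes in each direction (mean of at least 50 in the higher group, groups that do not overlap), from each list up to 6 DEGs with the smallest p in its main direction, 3 against it and 2 abundant genes that did not pass, and from a panel of 34 maturation and ovulation genes. One gene that the rule names is not reported here. Of the panel 27 were matched, of which 8 rose, 11 fell, 6 did not pass and 2 were not tested. Folds against 0 divide the mean of the oocyte libraries by a floor of 3 counts per library, and counting intervals cover counting error only.

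The column names carry no replicate number, and pairs were taken from their numbering. Deviations from the group means over the 15348 genes tested correlated at r = 0.375 for libraries 1 and 2, 0.310 for 5 and 6 and 0.384 for 9 and 10. For libraries of different pairs r was -0.12 to -0.24. Deviations cancel out over the libraries of a group, so these negative values follow in part from the positive ones and are no separate support. On the positive values the numbers were taken to pair the samples. With 7395154 to 9903122 counts per library, a gene at 0 in a library allows up to 3 counts. Within a group libraries differ by female, so p-values rest on the spread between 3 females, which the test draws in part from all genes. The main p-values treat the 6 libraries as independent and ignore the pairs, which only the fit with pairs as a block uses.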

Additional observations from a re-analysis of the deposited data

How the results depend on the processing

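The number of DEGs was 6227, and 4583 to 5125 when 1 library was left out, with 1970 to 2445 higher and 2497 to 2869 lower. Dividing by total counts gave 1295 higher in place of 2744. With pairs as a block 3380 genes were higher and 4084 lower, 6189 of them called the same way as without the block, and among named genes the block changed the calls of aurka, LOC118223254 and LOC118231973 only. No alternative called a DEG in the opposite direction. Named genes that did not pass changed sign as follows, and the cause was not tested. With total counts the log2 fold change became -0.28 for LOC118234290, -0.54 for mcm3, -0.55 for paqr7a and -0.72 for pgrmc2. That of pgrmc2 was -0.13 with upper-quartile scaling, -0.10 with at least 50 counts in 3 libraries, -0.022 in limma-voom, -0.0091 in thinned libraries and -0.020 with the block. That of bmp15 was 0.0016 with RLE scaling and 0.0015 in DESeq2. Bmp15 was 0.070 without library 2, nenf 0.13 and 0.13 without libraries 1 and 10 in turn, paqr7a -0.019 and -0.19 without libraries 5 and 2 in turn, pgrmc2 -0.036, -0.058, -0.039 and -0.12 without libraries 1, 5, 2 and 10 in turn and zpax1 0.10 without library 2. With 3 females a group, a change near 1 on the log2 scale did not always pass.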

Other observations

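Across all genes, 10 had at most 3 counts in every oocyte library and at least 10 in every egg library, and 806 genes showed the reverse. The 10 included suv39h1a and tmcc3, the calcium exchanger slc24a6a (2.45, 2.07 and 0.982 in the oocytes and 249.9, 117 and 28.2 in the eggs), and the transcription factor e2f2 (0.818, 2.07 and 0.982 in the oocytes and 57.4, 25.1 and 32.7 in the eggs). Of these, slc24a6a varied most between the eggs. Slc24a6a and e2f2 were picked with their values in view. The 10 were picked by these counts, so their test calls (8 DEGs and the other 2 below the filter) are no separate support.

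Bouncer is a small membrane protein through which fish eggs admit sperm, and 3 Bouncer-like genes are given here. LOC118223254 had 9466, 14370.4 and 21772 in the oocytes and 14785, 40959 and 48213 in the eggs (log2 fold change 1.19 ± 0.44 (SE), adjusted p = 0.041), higher in the egg library of each pair but past the threshold only with pairs as a block (adjusted p = 0.0037) or without library 2 (adjusted p = 0.0049). LOC118231973 had 158, 382 and 782 in the oocytes and 329, 849.7 and 1561 in the eggs (adjusted p = 0.18, and 0.0024 with pairs as a block), and LOC118231972 fell from 312, 191 and 425 to 17.9, 17.5 and 14.8 (log2 fold change -4.19 ± 0.45 (SE), adjusted p = 7.5e-05). They too were picked with their values in view.

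Of 318 long non-coding RNAs tested 56 fell and 15 rose, 22.3% in all, beside 3425 and 2729 of 15025 protein-coding genes. The difference between the classes was not tested.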
